A study of Caenorhabditis elegans with 6 samples.

Results

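The DBL-1 pathway is the branch of bone morphogenetic protein (BMP) signalling that sets body size in the nematode Caenorhabditis elegans. Its members here were the 10 genes that carry the symbols dbl-1, sma-2, sma-3, sma-4, sma-6, sma-9, sma-10, daf-4, lon-1 and lon-2. These were chosen by name and not by their values, though earlier results of these data were known. All 10 were found among the 46911 gene identifiers of the count tables, and all 10 were abundant enough to be among the 13138 genes tested.

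DBL-1 is a secreted ligand, made largely by neurons, that acts on the epidermis, the tissue that makes the cuticle. It binds a complex of type I and type II receptor kinases, which phosphorylate receptor-regulated Smads that enter the nucleus with a common partner Smad. Loss of the ligand, receptors or Smads gives small worms (sma), and loss of the inhibitors gives long ones (lon), in part through genes for cuticle collagens.

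RNA was taken from whole worms grown at 20 °C on Escherichia coli OP50 and collected at L4, the last larval stage. One group carried nmr-2(ok3324), a mutant allele of the gene for a subunit of a glutamate receptor of the NMDA type, and the other was wild type, strain N2 (WT). There were 3 libraries of each genotype, with totals of 21234748 to 27893186 counts, and no other treatment or genotype was compared. The comparison asks how transcript levels differ between worms with this mutation and WT, in a single mutant allele. The labels do not state whether the libraries of each genotype were grown separately, and the p-values below therefore rest on a spread between libraries that may be technical.

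Some facts of the whole set of libraries touch the results below. The TMM scaling factor was high, at 1.20, for replicate 2 of the mutant and low, at 0.838, for replicate 2 of WT, with 0.986 to 1.01 in the other 4 libraries. CPM are counts scaled to 1000000 per library with the TMM factors. nmr-2 itself had 3, 5 and 5 counts in the mutant and 7, 2 and 10 in WT, which does not check the genotype labels at this depth. Markers of neurons, body wall muscle, epidermis, intestine, pharynx and germline, as a whole worm should have, were all present, but dpy-7, a collagen gene of the epidermis, and ceh-22, a pharyngeal regulator, were too low to be tested. Of 8 neuronal markers 0 passed the test described below and 7 had a positive log2 fold change (median 0.34). An unadjusted p under 0.05 was found for 2 neuronal markers, unc-104 (0.70, SE 0.26) and unc-64 (0.43, SE 0.19), and for 17.2% of all tested genes. The summed level of the 8 neuronal markers, 206 to 209 CPM in the mutant and 209 to 215 CPM in WT, is mostly that of snb-1, the marker with a negative value (-0.20, SE 0.11). Of 5 pharyngeal markers 4 were tested, 0 passed and 4 were positive (median 0.37), at a summed 106 to 123 CPM in the mutant and 82.6 to 96.8 CPM in WT. Of these, 2 had an unadjusted p under 0.05, myo-2 (0.48, SE 0.12, edgeR adjusted p = 0.0502) and myo-1 (0.51, SE 0.15, adjusted p = 0.11). The part of these markers in the values of the members was not tested. The 5 epidermal markers summed to 81.1 to 95.3 CPM in the mutant and 86.9 to 98.6 CPM in WT. Of the 4 tested, 2 were positive and 2 negative (median log2 fold change -0.12). Of 5 body wall muscle markers 0 passed and 5 were positive (median 0.15), with myo-3 at an unadjusted p under 0.05 (0.36, SE 0.11). Of 5 intestinal markers 0 passed, 1 was positive and 4 negative (median -0.09), with ges-1 under that p (-0.32, SE 0.13). Of 5 germline markers 0 passed, 2 were positive and 3 negative (median -0.13), with 0 under that p. In whole worms, fewer cells of a type and less RNA per cell cannot be told apart.

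No gene of the pathway passed the test in either direction. By the quasi-likelihood test of edgeR, 0 of 10 members passed an adjusted p of 0.05, where 2.16% of all tested genes did (284 of 13138). At an unadjusted p under 0.05 there were also 0 members, against 17.2% of all tested genes, and DESeq2 and limma-voom called 0 as well. The median log2 fold change over the members was 0.02, beside 0.03 over all tested genes. Their fold changes were positive in 6 members and negative in 4, and ran from -0.19 to 0.43 on the log2 scale.

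In the main fit the estimates bound the size of a difference, if the libraries of each genotype were grown separately. The labels do not state that, and intervals from technical repeats would be too narrow. The 95% interval of each member's fold change lay within 2-fold in both directions for all 10 members, with 0.584 as the lowest bound (dbl-1) and 1.98 as the highest (sma-6). Among all tested genes 72.5% had such an interval. For 5 members, sma-9, sma-10, daf-4, lon-1 and lon-2, the interval also lay within 1.5-fold, as for 45.6% of all tested genes. These intervals are per gene, with no adjustment for the number of genes. With library totals in place of TMM scaling, the intervals of sma-4 and sma-6 reached past 2-fold, and 2 members instead of 5 stayed within 1.5-fold. With 1 library left out, 7 members stayed within 2-fold without nmr-2(ok3324) replicate 1 and 9 without any other library. Within 1.5-fold, 3 members (daf-4, lon-1 and lon-2) stayed without nmr-2(ok3324) replicate 1 or 3 or without WT replicate 1, and 4 or 5 without any other library.

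**Figure D1:**
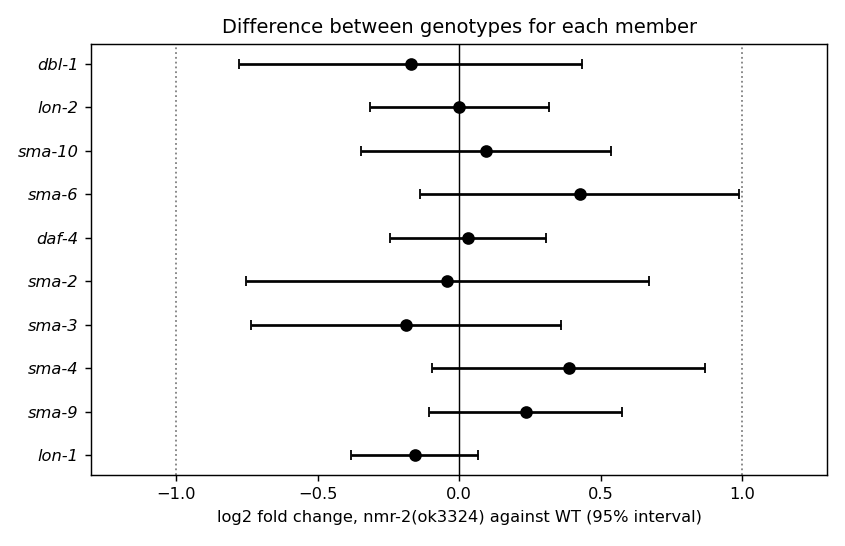
Log2 fold change of each member in nmr-2(ok3324) against WT (x axis) with its 95% interval from edgeR (bars, 3 libraries a genotype); dotted lines mark 2-fold differences. All 10 intervals include 0 and stay inside the dotted lines, and those of dbl-1 and sma-2 are wide while those of lon-1 and daf-4 are narrow.

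The ligand gene dbl-1 (WBGene00000936, chromosome V, 6758135 to 6760418 in WBcel235, plus strand) lies on the same chromosome as nmr-2, 8.25 Mb away. Mutant replicates 1, 2 and 3 had 113, 137 and 52 counts of it, or 4.01, 5.12 and 2.47 CPM. The WT libraries had 109, 62 and 134 counts, or 4.69, 3.01 and 5.39 CPM. The groups overlapped, and the lowest and highest libraries differed 2.18-fold, the widest range among the members. The mean was 3.87 ± 1.33 CPM in the mutant and 4.36 ± 1.23 CPM in WT (SD, n = 3), a log2 fold change of -0.17 (SE 0.28, edgeR adjusted p = 0.77). Counting error accounts for a coefficient of variation of about 9.97% at this depth in the mutant, where the libraries varied by 34.4%. The estimate rests on single libraries: it was 0.06 with mutant replicate 3 left out, -0.43 with mutant replicate 2 left out, and -0.62 (adjusted p = 0.23) without both libraries numbered 2.

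Outside the cell, lon-2 and sma-10 act in opposite senses. lon-2 encodes a glypican, a cell-surface proteoglycan that restrains DBL-1 signalling, and lies on chromosome X (4738964 to 4749083, minus strand). Its levels were 12.2, 14.6 and 16.1 CPM in the 3 mutant libraries and 15.4, 13.3 and 14.1 CPM in the WT libraries. With means of 14.3 ± 1.95 and 14.3 ± 1.03 CPM, lon-2 had the fold change nearest to 1 among the members (95% interval 0.804 to 1.25). sma-10 encodes a membrane protein with leucine-rich repeats and immunoglobulin domains that promotes signalling, and lies near an end of chromosome IV (274420 to 279943, plus strand). It stood at 7.13, 8.81 and 5.23 CPM in the mutant and at 7.32, 6.26 and 6.32 CPM in WT. The mutant libraries of sma-10 lay on both sides of all 3 WT libraries, with a log2 fold change of 0.09 (SE 0.21, adjusted p = 0.84 by edgeR). Without nmr-2(ok3324) replicate 2 it was -0.10.

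The 2 receptor genes differed in how steady they were. sma-6, the type I receptor gene of the pathway (chromosome II, 6324484 to 6327355, plus strand), had 4.01, 6.20 and 3.14 CPM in the mutant and 3.74, 3.01 and 3.22 CPM in WT. The log2 fold change of sma-6, 0.43 (SE 0.26, edgeR adjusted p = 0.40), was the highest among the members. nmr-2(ok3324) replicate 2 was the high library, replicate 3 lay inside the WT range, and the log2 fold change was 0.10 without replicate 2 of the mutant and 0.05 without both libraries numbered 2. daf-4 encodes the type II receptor, which also serves the DAF-7 pathway that controls the dauer larva (chromosome III, 5625135 to 5632323, plus strand). Its levels were 23.5, 23.6 and 30.3 CPM in the mutant and 25.9, 24.8 and 24.9 CPM in WT. In WT the libraries of daf-4 varied by 2.42%, below the 4.16% that counting error alone gives. Replicate 3 was the high mutant library for daf-4, and the other 2 mutant libraries lay below the WT range. Its log2 fold change was 0.03 (SE 0.13, adjusted p = 0.92).

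**Figure D2:**
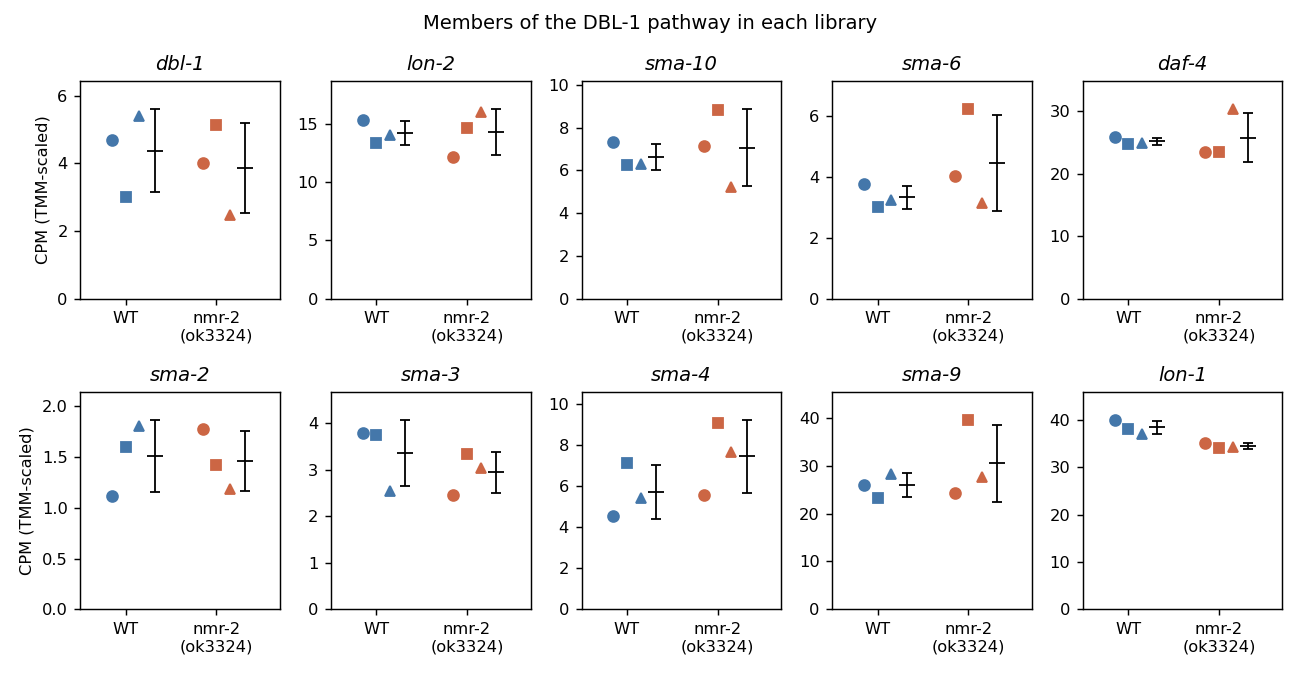
CPM (y axis, TMM-scaled) of each member in WT (blue) and nmr-2(ok3324) (orange); circles, squares and triangles are replicates 1, 2 and 3, and black bars are the mean and SD (n = 3). The genotypes overlap in 9 members; lon-1 is the exception, with mutant libraries at 34.0 to 35.1 CPM and WT libraries at 37.1 to 39.9 CPM.

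The 3 Smad genes lie on chromosome III. sma-2 and sma-3 encode the receptor-regulated Smads (8749680 to 8757089, plus strand, and 6860974 to 6863968, minus strand), and sma-4 the common Smad (5816232 to 5820204, plus strand). sma-2 had the fewest counts of the members, 50, 38 and 25 in the mutant and 26, 33 and 45 in WT, and counting error alone gives 16.3% and 17% of variation there, against 20.2% and 23.5% observed. Its mutant libraries at 1.77, 1.42 and 1.19 CPM and WT libraries at 1.12, 1.6 and 1.81 CPM covered nearly the same range (log2 fold change -0.04, SE 0.33, edgeR adjusted p = 0.96).

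sma-3 had 2.45, 3.32 and 3.04 CPM in the mutant and 3.79, 3.73 and 2.54 CPM in WT. Its fold change was the lowest among the members (log2 -0.19, SE 0.26, edgeR adjusted p = 0.72), with overlapping groups. sma-4 had 5.57, 9.08 and 7.65 CPM in the mutant and 4.56, 7.13 and 5.39 CPM in WT. This was the smallest p among the members: log2 fold change 0.39 (SE 0.23, unadjusted p = 0.11, adjusted p = 0.37), with 2 of 3 mutant libraries above every WT library. The value moved between 0.21 with mutant replicate 2 left out and 0.57 with WT replicate 2 left out, and with library totals alone it was 0.60, where the median of all tested genes stood at 0.20. Per length, the ratio of sma-4 to the sum of sma-2 and sma-3 was 1.01, 1.43 and 1.34 in the mutant libraries and 0.681, 0.996 and 0.952 in WT. The mutant libraries were all above the WT libraries in this ratio, though the lowest mutant and highest WT values nearly met; the ratio was not tested. The other ratios between members (sma-6 to daf-4, sma-2 to sma-3, lon-2 to dbl-1 and sma-10 to lon-2) overlapped between genotypes.

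Past the Smads, sma-9 and lon-1 were the remaining members. sma-9 encodes a zinc finger protein related to Drosophila Schnurri that works with the Smads on transcription (chromosome X, 10769282 to 10782973, plus strand), and its 16 annotated transcripts are the most of any member. It stood at 24.3, 39.5 and 27.7 CPM in the mutant and at 26, 23.3 and 28.3 CPM in WT. The log2 fold change of 0.23 (SE 0.16, adjusted p = 0.44 by edgeR) rested on 1 high library: it was -0.004 without nmr-2(ok3324) replicate 2.

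lon-1 encodes a secreted protein of the cysteine-rich CAP family whose loss lengthens the worm and whose transcription DBL-1 signalling is known to lower (chromosome III, 5474476 to 5478005, plus strand). It had 989, 909 and 720 counts in the mutant and 928, 787 and 921 in WT, or 35.1, 34.0 and 34.2 CPM against 39.9, 38.2 and 37.1 CPM. lon-1 was the member with groups that did not overlap, all mutant libraries being lower. Groups did not overlap in 24.4% of all tested genes, so 1 member of 10 is no more than the background. Its mean was 34.4 ± 0.592 CPM in the mutant and 38.4 ± 1.45 CPM in WT (SD, n = 3), and the fold of 0.897 had a 95% interval of 0.768 to 1.05 (log2 -0.16, SE 0.10, edgeR adjusted p = 0.43). The difference of lon-1 kept its sign in each fit that left out 1 library (-0.19 to -0.13) and was 0.02 with library totals alone, where all tested genes had a median of 0.20.

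Levels of the members spanned a wide range when set per length of merged exons. lon-1 was far above the rest, at 32.7 ± 1.23 CPM per kb in WT and 29.3 ± 0.504 in the mutant, higher per length than 76.6% of the tested genes. daf-4 followed with 8.14 ± 0.197 and 8.33 ± 1.27 CPM per kb, and lon-2 with 7.44 ± 0.535 and 7.46 ± 1.02. Over the 6 libraries the ranges of daf-4 and lon-2 overlapped, so their order is not resolved. A gap then separated lon-2 (at least 6.37 CPM per kb) from sma-9 (at most 5.11).

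From sma-9 down to sma-6 each gene overlapped the next. Means over the 6 libraries were 3.65 CPM per kb for sma-9, 3.49 for sma-4, 2.41 for sma-3, 2.38 for dbl-1, 2.27 for sma-10 and 1.82 for sma-6. sma-2 was the lowest member at 0.887 ± 0.208 CPM per kb in WT and 0.858 ± 0.173 in the mutant, and its highest library (1.06) stayed below the lowest of sma-6 (1.41). The type II receptor gene was thus above the type I gene in every library: the ratio of sma-6 to daf-4 per length was 0.191 ± 0.0173 in WT and 0.260 ± 0.116 in the mutant.

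**Figure D3:**
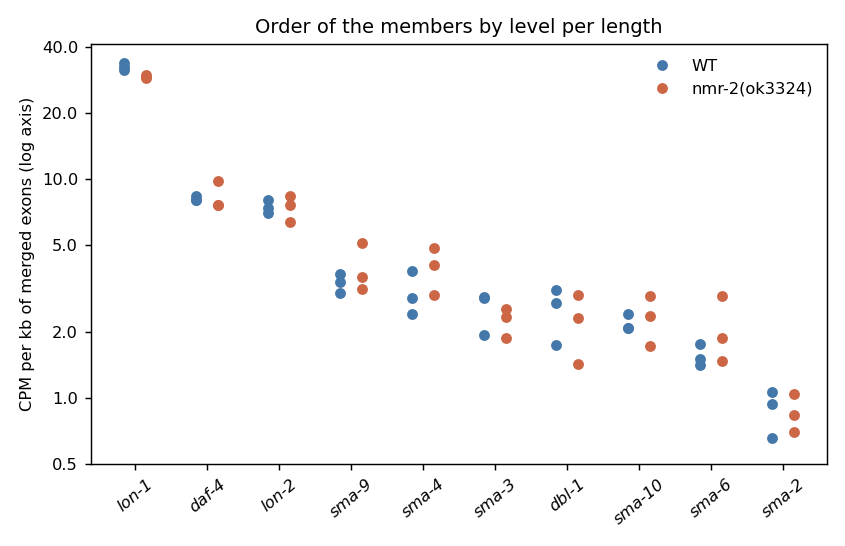
CPM per kb of merged exons (y axis, log scale) of the 10 members in each WT (blue) and nmr-2(ok3324) (orange) library, ordered by the mean of the 6 libraries. lon-1 stands alone at the top, daf-4 and lon-2 form a second level, and sma-2 is the lowest at 0.657 to 1.06 CPM per kb.

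The members did not move as a block from library to library. nmr-2(ok3324) replicate 2 held the highest value of 4 members (sma-4, sma-6, sma-9 and sma-10) and the lowest of lon-1. Among all tested genes that library was the highest for 28.1% and the lowest for 26.2%. dbl-1 and sma-10 were lowest in nmr-2(ok3324) replicate 3, the library in which daf-4 and lon-2 were highest. As the root mean square difference of log2 CPM centred on each gene's mean over the 6 libraries, the closest pair was daf-4 and lon-2 (0.0919) and the farthest was dbl-1 and sma-4 (0.603). The difference is also small for genes that both vary little, so a close pair need not move together. The tested genes of at least 5 CPM most like dbl-1 by this measure were dhp-1 (0.0974), R11A8.1 (0.151) and aat-4 (0.157). Those most like sma-4 were ptr-8 (0.110), Y92H12BM.1 (0.128) and ZK792.1 (0.138). They are the smallest of many differences over 6 libraries, and a link to either gene was not tested.

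**Figure D4:**
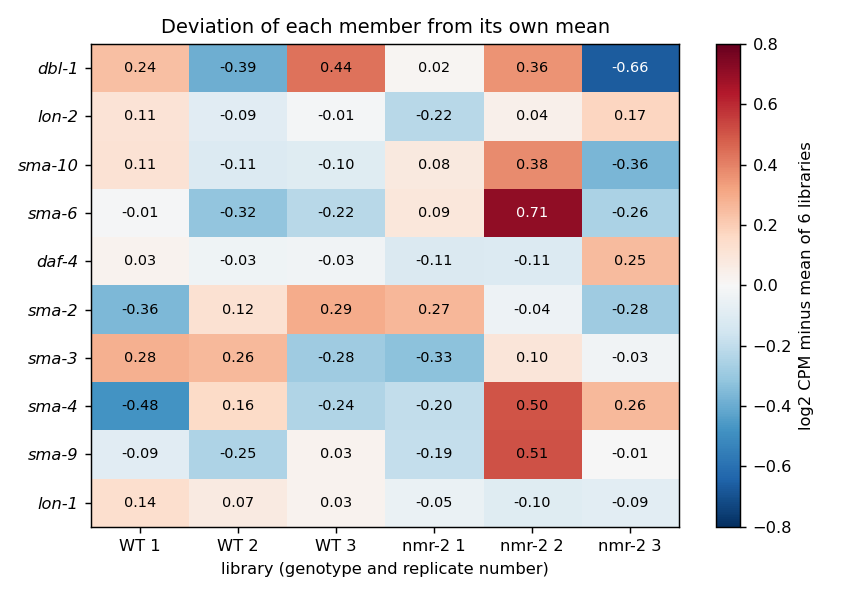
Log2 CPM of each member (rows) in each library (columns) minus the member's mean over the 6 libraries, with the value printed in each cell. nmr-2(ok3324) replicate 2 is high for sma-6 (0.71), sma-9 (0.51) and sma-4 (0.50), and replicate 3 is low for dbl-1 (-0.66), while lon-1 hardly moves.

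In the genome, 5 of the 10 members lie on chromosome III within 3.28 Mb (lon-1, daf-4, sma-4, sma-3 and sma-2), 2 on X and 1 each on II, IV and V. Overlap with exons of genes on the opposite strand was slight. aak-1 covers 5.88% of the exon bases of sma-2 (log2 fold change 0.02, SE 0.11) and ugtp-1 3.06% (-0.25, SE 0.13, adjusted p = 0.32), and T25F10.4 and clc-4 cover 0.521% and 0.608% of the exon bases of dbl-1 and sma-9. tomm-70, PAR2.5, C05D2.11 and C39E6.12 overlap a member (sma-2, sma-2, daf-4 and lon-2) in introns, with 0 shared exon bases. The strand setting of the counting is not given in the sources used here, so reads in these stretches cannot be assigned with certainty.

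In the wider BMP and TGF-beta machinery no gene passed the edgeR test on all 6 libraries. Among all tested genes 2.16% passed, 17.2% had an unadjusted p under 0.05 and 24.4% had groups that did not overlap. Of 10 other modulators of DBL-1 signalling 10 were tested and 0 passed (1 at an unadjusted p under 0.05), with a median log2 fold change of 0.03. The lowest p belonged to crm-1, which encodes a secreted protein related to Crossveinless-2 that promotes signalling. It had 14.1, 16.3 and 13.2 CPM in the mutant and 11.5, 9.55 and 11.6 CPM in WT. The mutant libraries of crm-1 were all above the WT libraries, with a log2 fold change of 0.42 (SE 0.15, adjusted p = 0.20 by edgeR). Next by p was tsp-12, a tetraspanin gene (-0.12, SE 0.10, adjusted p = 0.54).

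Of 8 genes that carry the receptors through endocytosis and recycling, 0 passed, 2 had an unadjusted p under 0.05 (17.2% of all tested genes did) and the median was -0.12. arf-6, a small GTPase gene, had -0.32 (SE 0.12, edgeR adjusted p = 0.22) and chc-1, the clathrin heavy chain gene, -0.28 (SE 0.13, adjusted p = 0.28). Without both libraries numbered 2, chc-1 passed (-0.25, edgeR adjusted p = 0.015). Of 10 other genes of TGF-beta signalling, among them ligand, receptor and Smad genes, 0 passed. Of these 10, 1 had an unadjusted p under 0.05, and the median was 0.16. tag-68, a Smad-related gene, was at 2.03 ± 0.175 CPM in the mutant and 3.13 ± 0.584 CPM in WT (log2 fold change -0.63, SE 0.26, edgeR adjusted p = 0.25). daf-7, the ligand gene of the dauer branch, was at 1.46 ± 0.195 and 0.852 ± 0.383 CPM (0.77, SE 0.39, adjusted p = 0.32). Of 5 body size genes other than the 10 members, 3 were tested and 0 passed. The lowest p by edgeR belonged to sma-5, a MAP kinase gene (0.54, SE 0.23, adjusted p = 0.25). The next belonged to egl-4, a cGMP-dependent protein kinase gene (-0.11, SE 0.12).

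Of 10 genes listed as reported targets of DBL-1 signalling, 7 were tested, 1 rose and 0 fell, where 2.16% of all tested genes passed. The list does not separate control of transcript levels from later control, nor genes raised by signalling from genes lowered. These counts are therefore not a readout of signalling. The gene that rose was lon-3, a cuticle collagen gene whose loss lengthens the worm. It had 165, 115 and 98 counts in the mutant and 68, 26 and 55 in WT, or 5.85, 4.30 and 4.66 CPM against 2.93, 1.26 and 2.21 CPM. All mutant libraries were above all WT libraries (groups did not overlap in 24.4% of all tested genes), with a log2 fold change of 1.20 (SE 0.29, edgeR adjusted p = 0.041). This call was lost in 6 of 14 alternatives, among them the fits without nmr-2(ok3324) replicate 1 (adjusted p = 0.16) or replicate 3 (0.064) and without WT replicate 2 (0.11) or replicate 3 (0.11), and its value stayed between 0.93 and 1.49.

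rol-6, another cuticle collagen gene, was at 5.43, 5.42 and 4.18 CPM in the mutant and 3.49, 1.36 and 2.01 CPM in WT. Its groups did not overlap either, but its adjusted p by edgeR was 0.069 (log2 fold change 1.13, SE 0.30); 4 of 14 alternatives called it, DESeq2 and limma-voom among them (adjusted p = 0.035 and 0.048). The 5 other tested genes, col-141, col-142, lys-8, fat-6 and fat-7, had log2 fold changes of -0.09 to 0.18. col-142, at -0.06 (SE 0.19), turned to 0.30 and was called without both libraries numbered 2 (edgeR adjusted p = 0.0049). col-41, spp-9 and cnc-2 were too low to be tested: spp-9, a saposin-like gene that DBL-1 represses, had 4 counts in WT replicate 2 and 0 in each other library.

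Both lon-3 and rol-6 are collagen genes, and the levels of many collagen genes cycle with the molts. A rise was not particular to the listed responders: collagen genes outside the list, such as col-138 and col-77, also passed as higher in the mutant. The collagen genes that rose or fell were not counted here. The 10 molting cycle genes were listed with earlier results of these data known, so their counts are a description and not a test. Among them 1 rose and 0 fell (2.16% of all tested genes passed). In this list 7 had an unadjusted p under 0.05 (17.2% of all tested genes did), and the median log2 fold change was 0.51. Of these 7, noah-1, a gene of the extracellular matrix of the epidermis, was lower: 2.41 ± 0.650 CPM in the mutant and 4.6 ± 0.318 CPM in WT (log2 fold change -0.93, SE 0.25, adjusted p = 0.076 by edgeR). Its groups did not overlap, and 4 of 14 alternatives called it lower, among them DESeq2 (adjusted p = 0.034) and the fit without nmr-2(ok3324) replicate 2 (0.030). Their summed level was 52.5 to 65.3 CPM in the mutant and 42.0 to 52.6 CPM in WT. mlt-8 rose from 3.79 ± 1.51 CPM in WT to 9.05 ± 0.650 in the mutant (edgeR adjusted p = 0.0099, log2 fold change 1.25, SE 0.24), a call that was lost without WT replicate 3 (adjusted p = 0.053). The part of molting stage in the values of lon-3 and rol-6 was not tested.

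**Figure D5:**
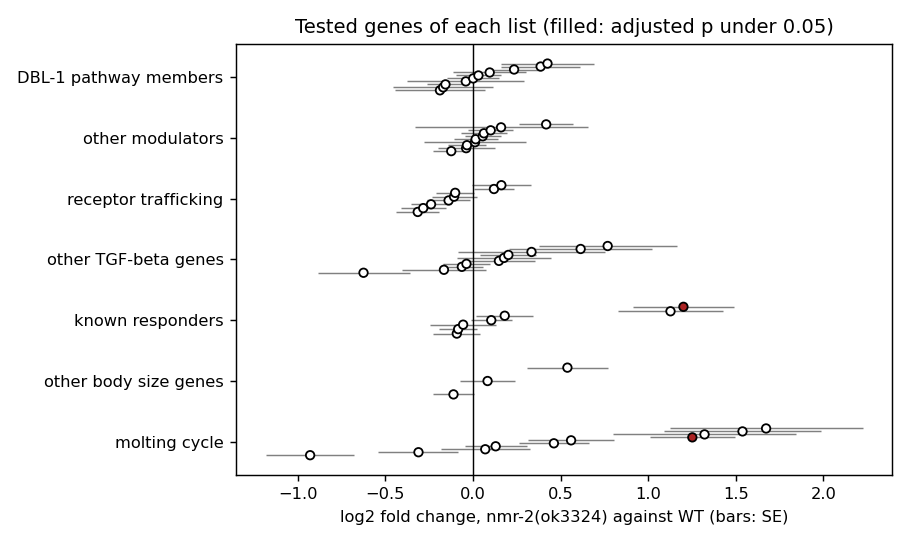
Log2 fold change in nmr-2(ok3324) against WT (x axis, bars are SE) of every tested gene in 7 lists; filled points passed an adjusted p of 0.05 by edgeR. The filled points are lon-3 in the list of reported targets (labelled known responders) and mlt-8 in the molting cycle list. No member, modulator, trafficking or other TGF-beta gene is filled.

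Across the whole table, fold changes were higher for scarce transcripts than for abundant ones, and each member was set beside genes of its own abundance. Tested genes were ranked by mean CPM and split into 10 groups of equal size. In the group that holds dbl-1, sma-3 and sma-6 the median log2 fold change was 0.18, and these had -0.17, -0.19 and 0.43. The median was 0.10 in the group of sma-4 and sma-10, -0.01 in that of sma-9 and daf-4, 0.02 for lon-2 and -0.03 for lon-1. sma-2 had -0.04 in a group with a median of 0.27. Members thus lay on both sides of the medians of genes of like abundance.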

How the data were processed

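The authors deposited whole-number counts per WormBase gene for each of 6 libraries, without normalization. The tools named per the submitters' processing notes were HTSeq and DESeq2, both lacking a version. For the aligner, genome build, annotation and strand setting, the entry is: not given in the sources used here. Symbols came from a table that paired 44059 of 46911 identifiers with a name, and coordinates, exon lengths and overlaps from the WBcel235 annotation of Ensembl release 115.

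Counts were fitted in R 4.3.3 with edgeR 4.0.16 (filterByExpr with nmr-2 kept, TMM, glmQLFit with robust estimation, glmQLFTest), with Benjamini-Hochberg adjustment over 13138 genes at 0.05. SE is the absolute log2 fold change divided by the square root of F, and log2 CPM use a prior count of 2. Libraries of a genotype differed beyond sampling noise (chi-square per degree of freedom 10.2 to 45.9), and each was counted as 1 replicate. At these depths 3 counts are 0.106 to 0.145 CPM. The intervals of the fold changes were built from the SE of the edgeR fit. They therefore include the spread between libraries as well as counting error.

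The members and lists were chosen with earlier results of these data known. Named were all members, nmr-2, the called genes of each list or its 2 lowest p, the 3 nearest profiles of dbl-1 and of the member with the lowest p, and genes whose exons overlap a member; other genes were named after their values were seen. The 14 alternatives used DESeq2 1.42.0, limma-voom (limma 3.58.1), other scalings and filters, a replicate block, and fits without libraries. Figures were drawn with matplotlib 3.10.9.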

Additional observations from a re-analysis of the deposited data

How the results depend on the processing

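Across the 14 alternatives 0 members were called in either direction. At an unadjusted p under 0.05 there were 2 members without nmr-2(ok3324) replicate 1. There was 1 member each with library totals alone, without nmr-2(ok3324) replicate 3, without WT replicate 2 and without both libraries numbered 2. The shares of all tested genes in those fits are not given here. Of 140 member values 116 kept their sign and 24 changed it, none of them past the threshold, and sma-4 and sma-6 were the members whose sign held throughout. lon-2, with a log2 fold change near 0, became -0.033 with DESeq2, -0.016 with limma-voom, -0.029 with RLE size factors and -0.0043 without the low-count filter; daf-4 became -0.0011 with DESeq2. With library totals alone dbl-1 (0.0077), sma-2 (0.14), sma-3 (0.00082) and lon-1 (0.016) turned positive, and the members' median was 0.19, or -0.02 relative to all tested genes. Without both libraries numbered 2, sma-2 was 0.025, sma-9 -0.069, sma-10 -0.13 and lon-2 -0.066. Leaving out 1 library gave ranges of -0.43 to 0.055 for dbl-1, -0.22 to 0.10 for sma-2, -0.0040 to 0.37 for sma-9, -0.10 to 0.26 for sma-10, -0.10 to 0.093 for daf-4 and -0.091 to 0.10 for lon-2. The causes of these changes were not tested.

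The number of members whose interval stayed within 2-fold was 7 without nmr-2(ok3324) replicate 1 (sma-2, sma-4 and sma-6 exceeded it) and 9 in each of the other fits that left out 1 library. It was also 9 when 1 CPM was required in 3 libraries and with the replicate block (sma-6, highest bound 2.02 and 2.01) and without both libraries numbered 2 (dbl-1, lowest bound 0.445).

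Over all tested genes, 235 were higher and 49 lower in the main test. The lower count was 99 with DESeq2, 16 with library totals alone and 185 without both libraries numbered 2. Without the low-count filter 441 were higher and 155 lower. Leaving out 1 library gave 151 to 226 higher and 30 to 52 lower. The 2 calls of the other lists (lon-3 and mlt-8) became 4 with DESeq2, 6 without the low-count filter, 5 without both libraries numbered 2, 1 with library totals alone and 0 to 3 when 1 library was left out.

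Replicate numbers are shared between genotypes but did not pair the libraries: deviations of same-numbered libraries correlated across genes at 0.000769, -0.277 and -0.102, and no library correlated best with its own number. With the replicate block 124 genes were higher and 18 lower, 1 call remained in the other lists (mlt-8), 0 members were called and lon-2 was -0.0031.

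Depth limits sma-2 most, where counting error alone gives 16.3% to 17% of variation between libraries.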
